A study of Mus musculus with 24 samples.

Results

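Immediate early genes are switched on within minutes of synaptic activity, growth factor or hormone stimulation, from transcription factors that already sit on their promoters. Here they are 10 genes taken by symbol from the count table of a mouse hypothalamus overfeeding experiment: Fos, Fosb, Junb, Egr1, Egr2, Npas4 and Nr4a1, which encode transcription factors, Ier2, which encodes a nuclear protein, Arc, which encodes a synaptic effector, and Dusp1, which encodes a phosphatase. The table held 55471 genes, all 10 members among them. Of these, 9 members were among the 18992 genes with enough counts to be tested, and Egr2 was not.

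The mice were male C57BL6/J, fed chow and 18 weeks old, and all of them carried a gastric catheter. ExpOF mice received a liquid diet supplemented with sucrose into the stomach at a rate raised above their energy needs, and Control mice received sterile water at the same rates. Hypothalami were taken on day 14 (Control d14 and ExpOF d14) or on day 17, after 3 further days on which both received water only (Control d14+3 and ExpOF d14+3). The number of mice was 6 in each group, and the study left out 1 Control d14 mouse without naming it. That mouse was inferred to be replicate 4, and without it 23 libraries were compared here, 5 of them from Control d14. All values come from bulk tissue, in which fewer cells of a type and less RNA per cell cannot be told apart.

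In neurons, calcium entry and cyclic AMP lead to phosphorylation of CREB, which binds cyclic AMP response elements (CRE), and the MAP kinase pathway acts through serum response factor at the CArG box. FOS and JUN family proteins then pair to form AP-1, EGR proteins bind GC-rich sites, and DUSP1 removes phosphate from MAP kinases, which limits the response. Neuroscience uses FOS as a mark of recently active neurons, including those of the hypothalamic feeding circuits.

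Windows before RefSeq start sites (build GRCm38.p6, the reference behind mm10) were taken for 7 of the 10 members. The 250 bases before the start are shown for 3 of them: Fos and Dusp1, which had the lowest unadjusted p-values between ExpOF and Control on d14+3, and Npas4, the member that varied least between mice. Capitals mark the CRE core TGACG or its reverse complement, and in Dusp1 the full CRE TGACGTCA, which contains a core on each strand. The Fos stretch is chr12:85473640-85473889 on the plus strand, the Dusp1 stretch is chr17:26508473-26508722 on the minus strand, and the Npas4 stretch is chr19:4989972-4990221 on the minus strand.
Fos: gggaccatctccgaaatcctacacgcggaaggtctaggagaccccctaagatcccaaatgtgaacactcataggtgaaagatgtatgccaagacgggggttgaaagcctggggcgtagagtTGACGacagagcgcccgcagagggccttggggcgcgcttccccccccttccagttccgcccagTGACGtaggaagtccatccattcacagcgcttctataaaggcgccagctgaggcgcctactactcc
Dusp1: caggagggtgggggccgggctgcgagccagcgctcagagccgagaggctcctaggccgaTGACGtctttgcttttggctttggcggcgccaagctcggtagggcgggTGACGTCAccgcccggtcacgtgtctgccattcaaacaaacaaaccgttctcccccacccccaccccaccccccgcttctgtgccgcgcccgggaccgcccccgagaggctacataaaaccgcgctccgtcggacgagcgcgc
Npas4: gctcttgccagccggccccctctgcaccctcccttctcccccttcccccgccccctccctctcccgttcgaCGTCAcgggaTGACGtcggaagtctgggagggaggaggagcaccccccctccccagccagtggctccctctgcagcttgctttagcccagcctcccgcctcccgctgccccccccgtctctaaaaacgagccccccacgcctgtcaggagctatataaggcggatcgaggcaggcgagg

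Both strands were searched in a window from 250 bases before the start to the start itself. Windows of Arc, Egr1 and Ier2 were not searched, so the counts below leave out these members and say nothing on their sites. The core was present in at least 1 window of 7 of the 7 members, and in 17.7% of 32817 single windows in the RefSeq table. The 7 members had 11 windows, as Egr2 had several, not all of which held the core. Members were thus counted by gene and the background by window, here and for the other sites. In Fos the cores began at positions -129 and -66 relative to the start. The full CRE was found in Dusp1 alone, at position -143, and in 1.55% of all windows. The EGR site GCGNGGGCG was found in Fosb and Nr4a1 (4.7% of all windows), the CArG box in Egr2 (1.47%), and the AP-1 site TGAGTCA in none of the 7 (4.46%). These are matches of letters and not evidence of binding.

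The depth was 8928182 to 34848437 counted reads per library. RNA integrity numbers (RIN) were lowest in Control d14+3, at 8.62 ± 1.09 (SD, n = 6, range 7.2 to 9.9), against 9.20 ± 0.860 in Control d14, 9.75 ± 0.138 in ExpOF d14 and 9.43 ± 0.450 in ExpOF d14+3. The mice had been killed in July or September, with 3 of each in every group but Control d14, where 3 were July mice and 2 September mice. Hypothalamic markers (8 genes) were detected in all groups and were lower on d14+3, with summed medians of 565 and 497 CPM (counts scaled to library size) in Control and ExpOF, against 757 and 650 CPM on d14. All 8 had a lower fitted level on d14+3 in Control mice and in ExpOF mice, none past the adjusted threshold by edgeR. Thalamus markers (4 genes) were higher on d14+3, with summed medians of 834 and 786 CPM in Control and ExpOF, against 413 and 483 CPM on d14. These were Tcf7l2, Prkcd, Rora and Slc17a6, and whether they mark thalamus alone in this tissue was not tested. The summed markers of cortex and hippocampus (4 genes) had medians of 49.6 and 40.1 CPM on d14+3 against 18.3 and 22.0 CPM on d14. Within ExpOF mice, Slc17a7 was the only 1 of these 4 with a higher fitted level on d14+3 and the other 3 were lower, and within Control mice 3 were higher and 1 lower. Choroid plexus markers reached 2979 CPM in Control d14 replicate 5 and 1250 CPM in ExpOF d14+3 replicate 4, and their medians were 10.2 to 18.0 CPM.

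Per kilobase of counted transcript, which is the scale on which genes can be compared, Arc was the most abundant member over the 23 mice, at 5.66 ± 1.30 CPM per kb (SD, n = 23). Nr4a1 (4.54 CPM per kb), Egr1 (4.48) and Dusp1 (3.74) followed, then Junb (2.92), Fos (2.73), Ier2 (2.26) and Npas4 (2.15). Fosb was far lower, at 0.238 ± 0.0605 CPM per kb (SD, n = 23). Egr2 was close to undetected: its counts ran from 0 to 17 per library, 117 in all, and 21 of 23 libraries had fewer than 10. It was at 0 in ExpOF d14 replicates 2 and 5, which by the 3 counts that a count of 0 allows limits it to 0.167 and 0.336 CPM there, counting error only. No difference in Egr2 was detectable at this depth.

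Between mice, Ier2 and Fos were the most variable of the tested members and Npas4 the least. The highest mouse exceeded the lowest 4.32-fold for Fos, 4.22-fold for Ier2 and 1.57-fold for Npas4, a neuron-specific factor induced by calcium entry. The mean was highest in Control d14+3 for 8 of the 9 tested members, Npas4 being highest in Control d14. The share of all genes with their highest mean in Control d14+3 was not computed. Groups next to each other in the order of means did not differ after adjustment in any of 27 neighbouring pairs (edgeR's quasi-likelihood test), and 3 had an unadjusted p below 0.05. Control d14+3 and ExpOF d14, which differed in both diet and day, were also compared. By edgeR 2 of the 9 members passed the adjusted threshold, both higher in Control d14+3. Over all 18992 genes tested, 261 were called higher and 42 lower there. Of the 4 thalamus markers 3 were also called higher, and their part was not tested.

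**Figure D1:**
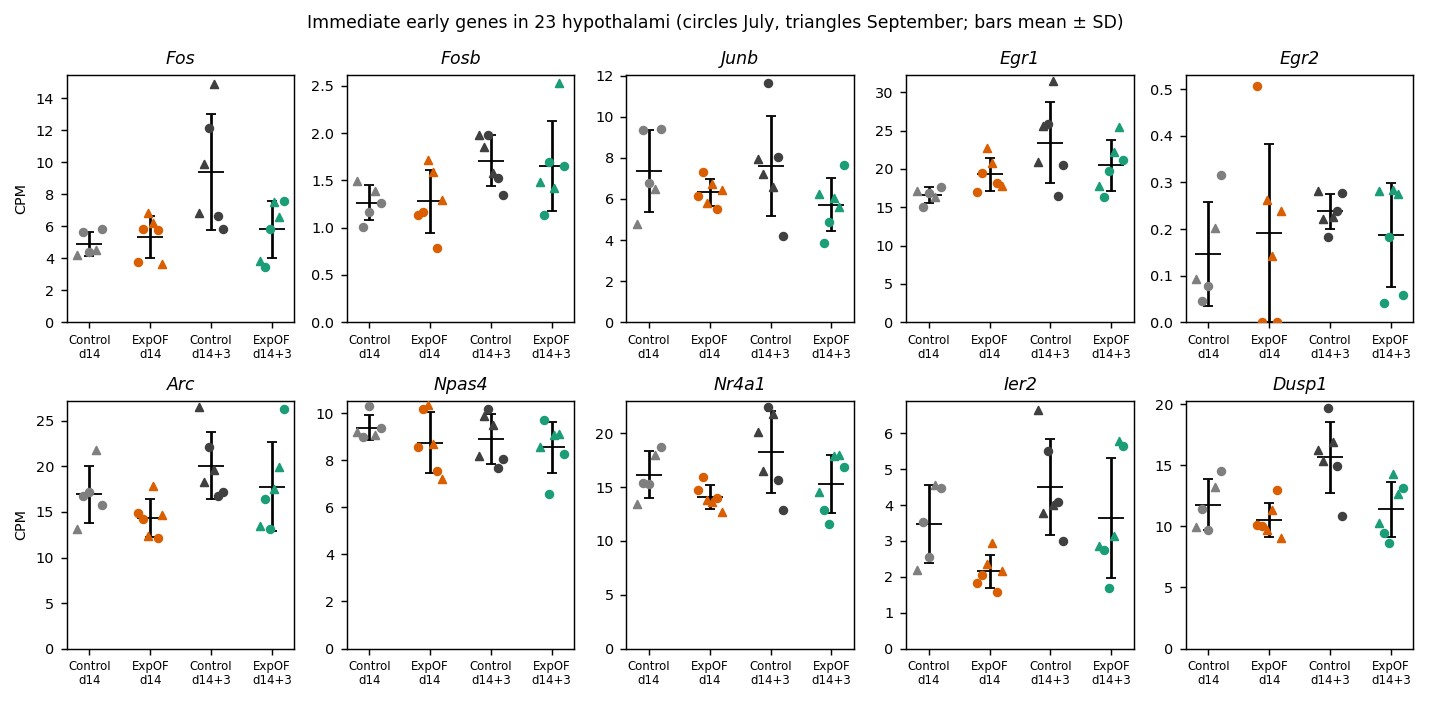
CPM (y axis, from 0) of the 10 members in the 4 groups (x axis), 1 point per mouse, with circles for July and triangles for September and bars for the mean and SD. Fos reached 14.9 CPM in Control d14+3, and the groups overlapped for every member.

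The first comparison asked whether these genes differed at the end of 14 days of overfeeding. None of the 9 tested members passed the adjusted threshold by edgeR or by DESeq2, where edgeR called 0.00527% of all genes tested. Their median log2 fold change (ExpOF against Control) was -0.18, beside -0.02 over all genes, with 3 members higher and 6 lower in ExpOF. Over all genes 8842 were higher and 10150 lower. At an unadjusted p under 0.05, 1 member was lower, against 13.6% of all genes, and none was higher. No member separated the groups without overlap, which 2.5% of all genes did.

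That member was Ier2 (chr8:84661331-84662852, minus strand, mm10), a rapidly induced gene of the growth factor response. The Control d14 mice had 2.19, 2.56, 3.54, 4.48 and 4.57 CPM. The ExpOF d14 mice ran from 1.58 to 2.93 CPM with a median of 2.11. All 6 ExpOF mice lay below the Control median and 4 lay below every Control mouse. The log2 fold change was -0.67 ± 0.27 (SE), with an adjusted p of 0.145 by edgeR and an exact two-sided permutation p of 0.0281, where the smallest p possible was 0.00216. Without Control d14 replicate 1, the lowest control, the log2 fold change was -0.79 and the adjusted p by edgeR 0.0454, the same omission that moved the genes called from 1 to 4220. Without replicate 5, the control with high choroid plexus markers, it was -0.55, and without replicate 6 it was -0.57, neither with an unadjusted p under 0.05. With the left-out replicate 4 included it was -1.09 (adjusted p = 0.0633 by edgeR), and it was -0.94 in July mice and -0.46 in September mice alone.

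Egr1 (chr18:34859823-34864984, plus strand), a zinc finger factor induced by MAP kinase signaling, lay the other way. The Control d14 mice had 14.99, 16.4, 16.9, 17.1 and 17.6 CPM, and the ExpOF d14 mice ran from 17.0 to 22.7 CPM with a median of 18.8. Of the ExpOF mice, 5 of 6 lay above every Control mouse. The log2 fold change was 0.22 ± 0.13 (SE), with an adjusted p of 0.253 by edgeR and an exact two-sided permutation p of 0.0195. These 2 were the only members with a permutation p under 0.05 among the 9 tested, which were not adjusted for their number.

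Fos (chr12:85473890-85477273, plus strand) overlapped between the groups on d14. The Control d14 mice had 4.19, 4.41, 4.50, 5.61 and 5.83 CPM, and the ExpOF d14 mice ran from 3.64 to 6.85 CPM with a median of 5.79. The log2 fold change of 0.12 had a 95% interval of -0.39 to 0.62, which holds a change of either sign. The other members had log2 fold changes of -0.23 for Arc, -0.22 for Junb, -0.20 for Nr4a1, -0.18 for Dusp1, -0.09 for Npas4 and 0.06 for Fosb, all with intervals that include 0. By month, 5 of 9 members were lower in ExpOF in both July and September mice and 1, Egr1, was higher in both. These counts by month were not made over all genes.

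The second comparison asked the same 3 days after the infusion of diet had ended. Again none of the 9 passed the adjusted threshold by edgeR or DESeq2, and edgeR called 0% of all genes. All 9 had a lower fitted level in ExpOF d14+3 than in Control d14+3, as had 9097 of the 18992 genes tested. Their median log2 fold change was -0.26 beside 0.01 over all genes. All 9 were lower in July mice and in September mice taken alone, a count that was not made over all genes. The members also varied together between mice, as described below, so these are not 9 separate results. At an unadjusted p under 0.05, 3 members were lower, against 4.2% of all genes. No member separated the groups without overlap, against 0.421% of all genes.

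**Figure D2:**
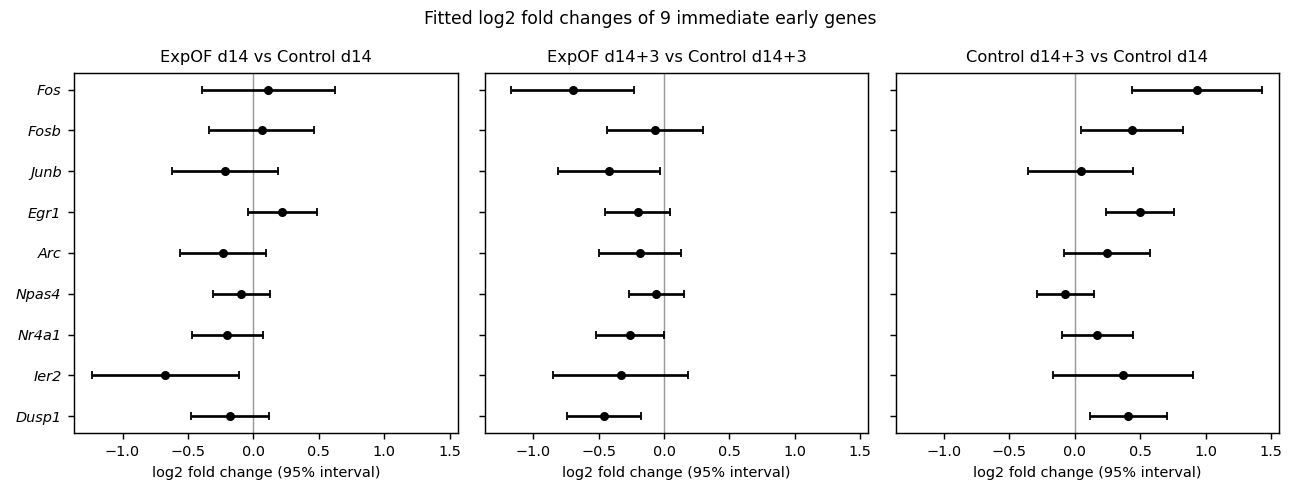
Fitted log2 fold change (x axis) of the 9 tested members (y axis) in 3 comparisons, points with 95% intervals. On d14+3 all 9 points lie below 0 (ExpOF against Control), from -0.70 for Fos to -0.06 for Npas4, and the intervals of Fos, Junb and Dusp1 do not reach 0.

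Dusp1 had the smallest p. The Control d14+3 mice ran from 10.9 to 19.7 CPM with a median of 15.8, and the ExpOF d14+3 mice from 8.64 to 14.3 CPM with a median of 11.5. All 6 ExpOF mice lay below the Control median and 3 lay below every Control mouse. The log2 fold change was -0.46 ± 0.14 (SE), with an adjusted p of 0.384 by edgeR and an exact two-sided permutation p of 0.0260. The Dusp1 gene (chr17:26505590-26562128, minus strand, GENCODE vM21) overlaps 4 other annotated genes, 2 of them on its own strand, which makes its count uncertain.

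Fos had the largest difference. The Control d14+3 mice ran from 5.82 to 14.9 CPM with a median of 8.38, and the ExpOF d14+3 mice from 3.45 to 7.60 CPM with a median of 6.20. Mean Fos was 9.38 ± 3.60 CPM in Control and 5.81 ± 1.79 CPM in ExpOF (SD, n = 6 each). All 6 ExpOF mice lay below the Control median and 2 lay below every Control mouse, while the other 4 lay within the Control range. The log2 fold change was -0.70 ± 0.23 (SE), with an adjusted p of 0.467 by edgeR and an exact two-sided permutation p of 0.0563.

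Junb, the AP-1 partner of FOS, ran from 4.20 to 11.7 CPM in Control d14+3 (median 7.59) and from 3.83 to 7.66 CPM in ExpOF d14+3 (median 5.83). Its log2 fold change was -0.42 ± 0.19 (SE; adjusted p = 0.677 by edgeR), and 1 of 6 ExpOF mice lay below every Control mouse. The Junb gene (chr8:84974484-84978718, minus strand) overlaps Prdx2 on the opposite strand, and whether counting used the strand is not given in the sources used here. Nr4a1, an orphan nuclear receptor, had a log2 fold change of -0.26 and Ier2 one of -0.33, while Egr1 (-0.20), Arc (-0.18), Fosb (-0.07) and Npas4 (-0.06) were nearer to 0. The intervals of these 6 members include 0.

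RNA integrity was lower in the Control d14+3 libraries, so the comparison was repeated without the libraries of RIN under 8.5, a limit chosen after the data were seen. This removed 3 Control d14+3 libraries and 1 Control d14 library. The 3 from Control d14+3, replicates 4, 5 and 6, were those of extraction round 2, while ExpOF d14+3 kept libraries of both rounds. RNA integrity and extraction round therefore cannot be told apart in this repeat. The log2 fold changes on d14+3 were then -0.74 for Fos, -0.65 for Junb and -0.58 for Dusp1, and the adjusted p-values by edgeR were 0.199, 0.184 and 0.141. With thalamus markers as a covariate the log2 fold changes were -0.66 for Fos and -0.43 for Dusp1, close to those without it. Of the 4 thalamus markers, 2 were higher and 2 lower in ExpOF d14+3 (median log2 fold change -0.05), so this covariate could shift the fold changes little. It narrowed the SE from 0.23 to 0.21 for Fos and from 0.14 to 0.10 for Dusp1. Their adjusted p-values by edgeR were then 0.408 and 0.157. All 4 cortex and hippocampus markers had a lower fitted level in ExpOF d14+3 (median -0.16), none with an unadjusted p under 0.05 by edgeR. They were not used as a covariate, and their part was not tested.

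**Figure D3:**
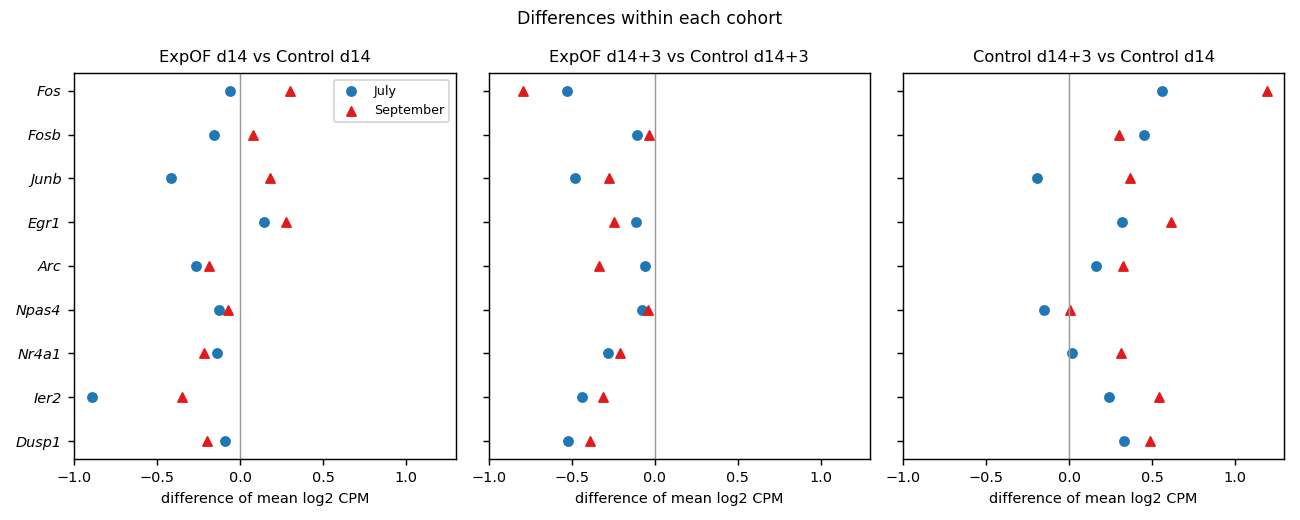
Difference of mean log2 CPM (x axis) of the 9 members (y axis) in July mice (circles) and September mice (triangles), in 3 comparisons. On d14+3 both points of all 9 members lie below 0, whereas on d14 Fos, Fosb and Junb have a point on each side.

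Whether the overfeeding difference itself differed between the days was tested as an interaction. No member passed the adjusted threshold by edgeR or DESeq2, and edgeR called 0% of all genes. At an unadjusted p under 0.05, 2 members were lower, Fos at -0.81 ± 0.33 (SE) and Egr1 at -0.42 ± 0.18 (SE) on the log2 scale, both with an adjusted p of 0.903 by edgeR, against 1.64% of all genes.

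Within ExpOF mice, d14+3 was compared with d14. No member passed the adjusted threshold by edgeR or DESeq2, and edgeR called 0% of all genes. Ier2 was the 1 member higher at an unadjusted p under 0.05, against 5.39% of all genes, with a log2 fold change of 0.71 ± 0.27 (SE; adjusted p = 0.391 by edgeR). All 4 thalamus markers had a higher fitted level in the same comparison (median log2 fold change 0.83). With them as a covariate Ier2 was at -0.26, and 8 of the 9 members were lower on d14+3, against 2 of 9 without it. Their summed level ran from 436 to 614 CPM in ExpOF d14 and from 618 to 983 CPM in ExpOF d14+3. Because these ranges do not overlap, the parts of marker level and day cannot be told apart in ExpOF mice. Fos was at 5.34 ± 1.32 CPM on d14 and 5.81 ± 1.79 CPM on d14+3 (SD, n = 6 each), a difference smaller than either SD.

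Within Control mice, which received water throughout, 8 of the 9 tested members had a higher fitted level on d14+3, as had 9119 of the 18992 genes tested. By edgeR none of the 9 passed the adjusted threshold, while 1.15% of all genes did, and by DESeq2 Fos and Egr1 passed, where DESeq2 called 3.24% of 16399 genes. At an unadjusted p under 0.05, 4 members were higher by edgeR, against 6.81% of all genes. In both July and September mice 7 of 9 were higher, a count that was not made over all genes. This comparison uses the same 6 Control d14+3 mice as the overfeeding comparison on that day, so a high level in them enters both. No member separated the 2 groups, against 1.58% of all genes, or the 2 ExpOF groups, against 0.832%.

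Mean Fos was 4.91 ± 0.752 CPM (SD, n = 5) in Control d14 and 9.38 ± 3.60 CPM (SD, n = 6) in Control d14+3. Of the Control d14+3 mice, 5 of 6 lay above every Control d14 mouse. The log2 fold change was 0.93 ± 0.24 (SE), with an adjusted p of 0.0557 by edgeR and 0.00727 by DESeq2, and an exact two-sided permutation p of 0.0108. Egr1 ran from 16.4 to 31.5 CPM in Control d14+3 (median 23.2), again with 5 of 6 mice above every Control d14 mouse. Its log2 fold change was 0.50 ± 0.13 (SE), with an adjusted p of 0.0524 by edgeR and 0.00984 by DESeq2. Both genes thus lay on one side of the threshold by edgeR and on the other by DESeq2.

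Dusp1 had a log2 fold change of 0.41 ± 0.14 (SE; adjusted p = 0.189 by edgeR), and Fosb, which pairs with JUN proteins and yields the long-lived ΔFOSB variant, one of 0.44 ± 0.19 (SE; adjusted p = 0.318 by edgeR). The Control log2 fold changes of Ier2 (0.37), Arc (0.25), Nr4a1 (0.17), Junb (0.05) and Npas4 (-0.07) had intervals that include 0. Summed thalamus markers ran from 396 to 675 CPM in Control d14 and from 622 to 942 CPM in Control d14+3, with all 4 markers higher and 2 of them past the adjusted threshold by edgeR. With these markers as a covariate, added after the data were seen, the log2 fold changes were 0.45 for Fos, 0.23 for Egr1 and -0.07 for Dusp1. Because the marker level and the day hardly overlap in the Control mice, their parts cannot be told apart.

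**Figure D4:**
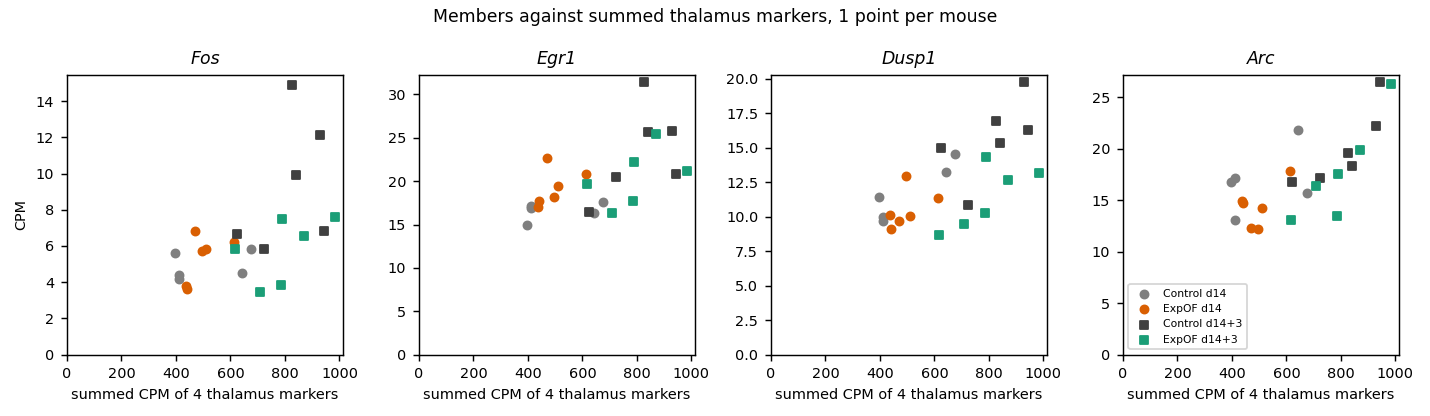
CPM of Fos, Egr1, Dusp1 and Arc (y axes, from 0) against the summed CPM of 4 thalamus markers (x axis), 1 point per mouse, with circles for d14 and squares for d14+3. The Control d14+3 mice lie at 622 to 942 CPM on the marker axis and hold the highest Fos, Egr1 and Dusp1 values.

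Mice killed in July and in September were compared with group and extraction round in the model. No member passed the adjusted threshold by edgeR or DESeq2, and edgeR called 0% of all genes. At an unadjusted p under 0.05, 2 members were lower in July, against 2.52% of all genes: Fosb at -0.31 ± 0.12 (SE) and Egr1 at -0.18 ± 0.08 (SE) on the log2 scale, both with an adjusted p of 1 by edgeR.

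Across mice of the same group the members moved together. After the group means had been subtracted, all 36 pairs of the 9 members had a positive Pearson correlation over the 23 mice, with a median r of 0.448 and a range of 0.150 to 0.851. For each pair, the 2 mice farthest from the median of the gene listed first were then left out, and mice far out for the other gene stayed in. Without these 2 mice 33 pairs were positive and 3 negative, from -0.071 to 0.784. With all 24 libraries the median was 0.366. The tightest pairs were Nr4a1 with Dusp1 (r = 0.851, Spearman's rho = 0.809), Arc with Ier2 (r = 0.814, rho = 0.749) and Fos with Egr1 (r = 0.810, rho = 0.840). Npas4 was the least coupled, with a median r of 0.249 with the other members. The points share library, depth and dissection, and these values are descriptions. Correlations between pairs of other genes were not computed, so the shared variation is not shown to be particular to the members.

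**Figure D5:**
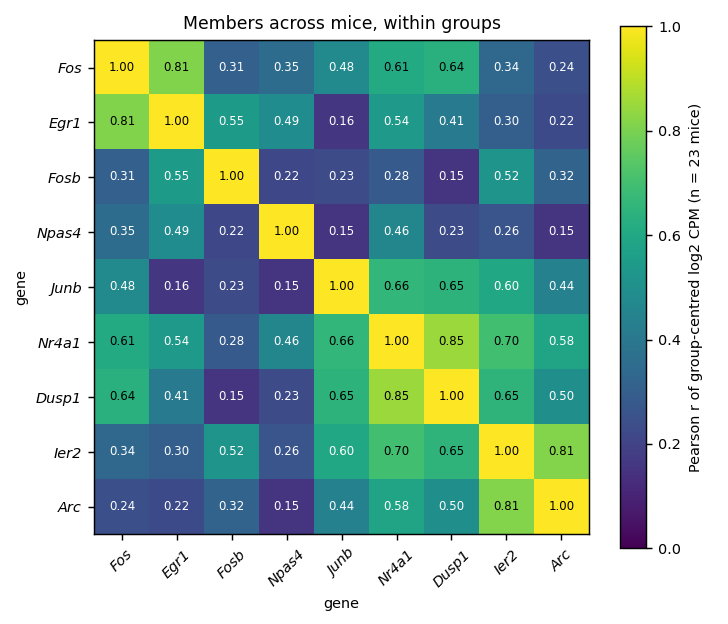
Pearson r of group-centred log2 CPM over 23 mice for each pair of the 9 tested members (both axes), on a color scale from 0 to 1. The brightest pairs off the diagonal are Nr4a1 with Dusp1, Arc with Ier2 and Fos with Egr1.

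The same within-group deviations followed the regional markers. Against summed cortex and hippocampus markers, r was 0.848 for Ier2, 0.768 for Arc, 0.735 for Nr4a1 and 0.716 for Dusp1, and 0.446 for Fos and 0.285 for Npas4. Against summed thalamus markers it ran from 0.274 for Npas4 to 0.753 for Ier2, and against hypothalamic markers from -0.144 to 0.329. Against RIN it was highest for Junb, at 0.534. The part of dissection or RNA quality in the shared variation was not tested.

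The genes outside the members whose within-group pattern was most like the mean of the members were Jup, Pgbd5, Chst1, B4galt2, Grm2, Fhdc1, Sh3bp4, Scrt2, Fbxo40 and Necab2, with r from 0.913 for Jup to 0.877 for Necab2 over 23 mice. None of the 10 was on the lists of activity-related genes described next.

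The wider activity program was read from 4 lists. Of 39 other rapid response genes, none passed the adjusted threshold by edgeR or DESeq2 in either overfeeding comparison. On d14, 4 were higher and 7 lower at an unadjusted p under 0.05, against 13.1% and 13.6% of all genes, with a median log2 fold change of -0.13. The smallest p-values on d14 were those of Gadd45b, a growth arrest and DNA damage gene, at -0.54 ± 0.18 (SE), Jund, another JUN family member, at -0.72 ± 0.24 (SE), and Ccn1, a secreted matrix protein, at -0.33 ± 0.12 (SE), with adjusted p-values by edgeR of 0.135, 0.135 and 0.138. On d14+3, 2 were lower and none higher, against 4.2% and 2.91% of all genes, with a median of -0.09. The smallest p-values there were those of Ier5l (-0.59), Cebpb (-0.55) and Egr3 (-0.41), a relative of Egr1.

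Of 15 delayed response genes, which follow the first wave, none passed in either overfeeding comparison by edgeR, with 1 higher and 1 lower on d14 (13.1% and 13.6% of all genes) and 2 higher on d14+3 (2.91% of all genes) at an unadjusted p under 0.05. Homer1, a postsynaptic scaffold gene, had a log2 fold change of 0.40 ± 0.12 (SE) on d14, Scg2, a secretory granule protein, one of -0.15 and Vgf, a neuropeptide precursor, one of -0.27. On d14+3 Ptgs2, the inducible cyclooxygenase, had one of 1.24 ± 0.44 (SE), Inhba one of 0.40 and Penk one of -0.15. Ptgs2 averaged 2.03 ± 1.55 CPM in ExpOF and 0.857 ± 0.296 CPM in Control on d14+3 (SD, n = 6 each), with an adjusted p of 0.526 by edgeR.

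Of 20 upstream regulators, none passed in either overfeeding comparison by edgeR, with 8 higher and 2 lower on d14 (13.1% and 13.6% of all genes) and 1 higher on d14+3 (2.91% of all genes) at an unadjusted p under 0.05. Camk4, a calcium-dependent kinase that phosphorylates CREB, had a log2 fold change of 0.40 ± 0.13 (SE) on d14, Creb1 itself one of 0.38 ± 0.13 (SE) and the kinase gene Rps6ka5 one of 0.29 ± 0.10 (SE), all with an adjusted p of 0.135 by edgeR. On d14+3 the smallest p-values were those of Rps6ka5 (0.22), Prkaca (-0.10) and Mrtfb (0.13). In Control mice from d14 to d14+3, Mef2a and Mef2c, activity-regulated transcription factors, rose by 0.51 ± 0.09 and 0.58 ± 0.10 (log2, SE; adjusted p = 0.00742 and 0.00861 by edgeR), and Scg2, of the delayed list, fell by 0.23 ± 0.05 (log2, SE; adjusted p = 0.0254 by edgeR). The thalamus markers given above were higher in the same Control d14+3 mice, and their part in these 3 changes was not tested. In Control mice edgeR called 2 of the 20 upstream regulators and 1 of the 15 delayed response genes, against 1.15% of all genes. In ExpOF mice mean Mef2a was 111 CPM on d14 and 140 CPM on d14+3, mean Mef2c 34.9 and 40.5 CPM, and mean Scg2 1096.4 and 1047.5 CPM. Between the ExpOF days edgeR called 0% of all genes.

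Of 12 glucocorticoid targets, a list included because stress hormones also induce Dusp1, none passed in either overfeeding comparison by edgeR, with 2 lower on d14 (13.6% of all genes) and 1 lower on d14+3 (4.2% of all genes) at an unadjusted p under 0.05. On d14 these were the metallothionein genes Mt2 and Mt1, at -0.57 ± 0.14 and -0.55 ± 0.14 (log2, SE; both adjusted p = 0.135 by edgeR), followed by Cdkn1a at -0.21. Mt2 averaged 43.7 ± 5.84 CPM (SD, n = 5) in Control d14 and 29.1 ± 4.89 CPM (SD, n = 6) in ExpOF d14. On d14+3 Mt1 was at -0.32, Per1 at -0.17 and Mt2 at 0.23.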

How the data were processed

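The authors deposited 1 table of raw read counts per gene for 24 poly-A selected hypothalamus libraries, which they had aligned with STAR to mm10 and counted with featureCounts 1.6.4 on GENCODE vM22 genes, per the labels and the study's methods. Groups came from the sample labels, and the members and gene lists were chosen with earlier results of these data known. The study left out 1 unnamed Control d14 mouse for poor RNA quality. It was inferred to be replicate 4 from the mean counts in the study's own result table, and that library was left out here, although its labelled RIN is 9.8. Gene symbols were matched for 55144 of 55471 identifiers. Genes were kept by filterByExpr (minimum count 10, minimum total 15), scaled by TMM and tested in 1 model of the 4 groups by the quasi-likelihood F-test of edgeR 4.0.16 in R 4.3.3, with Benjamini-Hochberg adjustment over 18992 genes and a threshold of 0.05. Levels are CPM on TMM-scaled library sizes, and log2 CPM used a prior count of 2. Single genes were also tested by exact two-sided permutation of log2 CPM. Intervals are 95% intervals.

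DESeq2 1.42.0, the study's tool, was an alternative. Its independent filtering level was set to the 0.05 threshold after a first run at the default of 0.1 had been seen, and both are given below. Other alternatives were other scaling and filters, all 24 libraries, each month alone, covariates, the replicate number as a block, and each library left out in turn. The scripts were tested on simulated counts. Genes whose annotation overlaps another gene are named as uncertain. Gene positions are from GENCODE vM21 and promoters from RefSeq. No 2 libraries of a group were within sampling noise of each other in 55 pairs (lowest chi-square per degree of freedom 2.95). Each mouse gave 1 library. Genes named from the lists were those past the adjusted threshold and the 3 with the smallest unadjusted p per list in each overfeeding comparison.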

Additional observations from a re-analysis of the deposited data

Results flagged for a closer look

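The Control d14 library that was left out of all comparisons, replicate 4, had higher levels of 2 members than any of the 5 Control d14 libraries that were used. Ier2 was at 11.9 CPM there, against a highest value of 4.57 CPM in the others, and Junb was at 9.83 CPM, against 9.42 CPM. Fos was at 3.38 CPM and Egr1 at 12.4 CPM in that library, below the other Control d14 mice. No member had a mouse standing apart within its group in 36 tests for a single distant value.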

How the results depend on the processing

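On d14 the members called remained 0 of 9 except without Control d14 replicate 1 (range 0 to 1 over single libraries left out), and those at an unadjusted p under 0.05 numbered 3 with only the groups compared, 2 with all 24 libraries, and 0 in September mice alone and without RIN under 8.5 (0 to 1 over single libraries left out; main value 1). Genes called on d14 were 166 by DESeq2, 196 by DESeq2 at its default filtering level, 2 with only the groups compared, 0 in July and 0 in September mice, and 1 to 4220 over single libraries left out. Rapid response genes called were 0 to 5, with 5 without Control d14 replicate 1. On d14+3 the members called were 0 under every setting run; those at an unadjusted p under 0.05 were 1 in July mice and 2 to 5 over single libraries left out, and genes called were 55 by DESeq2, 42 at its default filtering level and 26 with RIN as a covariate. For Control mice between the days, members called were 2 by DESeq2 at either filtering level, 1 with DESeq2 size factors, 2 with at least 10 counts in every library, 2 with all 24 libraries, 1 with RIN as a covariate, 1 without RIN under 8.5, and 0 to 2 over single libraries left out (2 without Control d14+3 replicate 5 or 6). Those at an unadjusted p under 0.05 were 2 in July mice, 7 without RIN under 8.5 (main value 4, all higher), 1 with thalamus markers as a covariate, which was Ier2 and lower, and 3 to 5 over single libraries left out. The RIN limit, the thalamus covariate and the change of DESeq2's filtering level were chosen after seeing the data, and the causes of these shifts were not tested.

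Some signs turned, under the thalamus covariate also those of larger differences. On d14 Fos was at -0.0815 in July mice and -0.0079 with the replicate block, Fosb at -0.11 in July mice and -0.046 to 0.128 over single libraries left out, and Junb at 0.15 in September mice. On d14+3 Fosb ran from -0.221 to 0.021 and Npas4 from -0.0986 to 0.0045 over single libraries left out. For Control mice between the days Junb was at -0.0174 with all 24 libraries, -0.0829 in July mice and -0.118 to 0.178 over single libraries left out, Ier2 at -0.0506 with all 24 libraries, and Npas4 at 0.02 in September mice. With thalamus markers as a covariate Junb was at -0.34, Arc at -0.27, Nr4a1 at -0.26, Ier2 at -0.57 (0.37 without the covariate) and Dusp1 at -0.0652 (0.41 without it), and Ier2 in ExpOF mice between the days was at -0.26 (0.71 without it). Replicate numbers did not pair the samples: 2 of 22 same-numbered pairs correlated above 0.1 (range -0.23 to 0.223), and the block changed no count of members called.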
